A study of Homo sapiens with 6 samples.

Results

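Tight junction genes were followed in T47D cells, a luminal breast cancer line, after they received a mimic of miR-489. The set holds 9 genes: the claudins CLDN1, CLDN3, CLDN4 and CLDN7, occludin (OCLN), the zonula occludens scaffolds TJP1 and TJP3, cingulin (CGN) and the cingulin-like gene CGNL1. Its members were picked by name with these arrays' mimic against scramble values known, above all because TJP1 and CGNL1 had moved in opposite directions, so every member value is given as a description, and counts of calls among the members support nothing. The platform annotation maps 10 of the 47322 probes to 8 of the 9 genes. TJP3 has no probe in that annotation and was not analysed here. Cells received either the miR-489 mimic or a scramble siRNA as control, were grown in serum-supplemented RPMI medium and were harvested after 72 h. Each group had 3 arrays, numbered 1 to 3, with a single readout, biotin-labelled cRNA on a 1-colour Illumina BeadChip. The labels do not say that the 3 samples came from separate cultures, so the errors and p-values here cover only the variation among these 3 samples, which can be technical. All values come from 1 cell line at 1 time.

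Tight junctions seal the space between neighbouring epithelial cells near their apical border. Claudins are membrane proteins with 4 transmembrane segments that form the strands of the seal and set which ions pass, and occludin lies in the same strands. Zonula occludens proteins such as ZO-1, the product of TJP1, bind claudin tails through PDZ domains and tie the strands to actin, and cingulin and its relative paracingulin, the product of CGNL1, sit on the cytoplasmic side and bind ZO-1 and microtubules. In luminal breast epithelium these genes are part of the apical junction that also holds E-cadherin.

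The mature miR-489 strand in the RefSeq table is shown because it is the agent the cells received a mimic of, although the labels name neither the arm nor the sequence of that mimic. The seed, bases 2 to 8, is in capitals, and the position is in build GRCh38.p14 on the minus strand, chr7:93483947-93483968.
hsa-miR-489-3p: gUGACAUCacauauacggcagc

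Intensity averaged 543 to 619 per mimic array and 526 to 571 per scramble array, and 16452 to 17346 probes per array had a detection p below 0.01. A probe counted as measured if it was detected on at least 3 of the 6 arrays, which held for 17104 probes. Within groups the arrays correlated at r = 0.982 to 0.993 across these probes. Markers matched the label of a luminal epithelial line: all 8 luminal markers were detected on all 6 arrays, while 0 of 5 endothelial markers were, and PTPRC, CD3E, KRT5, KRT14, COL1A2 and PECAM1 were detected on none. Of the 7 fibroblast markers only the collagen gene COL1A1 was detected, on all 6 arrays, at 7.48 ± 0.16 on mimic arrays and 7.54 ± 0.37 on scramble arrays (log2, SD, n = 3 each). ACTA2, smooth muscle actin, and OXTR were the 2 of 5 basal markers detected. ACTA2 averaged 11.78 ± 0.84 on mimic arrays and 9.20 ± 1.34 on scramble arrays. OXTR averaged 7.24 ± 0.21 and 7.41 ± 0.12, so the basal markers did not rise together. The summed log2 level of the basal list, mostly that of ACTA2, ran from 11.42 to 12.79 on mimic arrays and from 8.99 to 10.91 on scramble arrays. The summed level of the leukocyte list, in which CD14 and CD68 were the 2 of 5 detected, ran from 8.98 to 9.01 on mimic arrays and from 9.56 to 9.80 on scramble arrays, and that of the luminal list from 15.67 to 15.74 on mimic arrays and from 15.91 to 15.95 on scramble arrays. Luminal markers went both ways, with log2 differences (mimic minus scramble) of -1.16 for ESR1, -1.05 for FOXA1, -0.60 for GATA3 and -0.51 for KRT19. Those of KRT18, EPCAM, KRT8 and CDH1 were 0.59, 0.50, 0.46 and 0.17. The part of these shifts in the results below was not tested.

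Among the members the largest differences were those of CGNL1 and TJP1. TJP1 was higher with the mimic on both of its probes, by 2.64-fold and 2.49-fold, CGN was higher by 1.40-fold, and CGNL1 was 7.34-fold lower. Among the claudins, CLDN7 was 1.66-fold and CLDN3 1.49-fold lower, and CLDN1 and CLDN4 overlapped between the groups. OCLN was detected on no array with either of its probes. In a limma fit over all measured probes, 2 of the 7 measured member genes passed an adjusted p of 0.05 as higher (TJP1 and CGN) and 3 as lower (CGNL1, CLDN7 and CLDN3), beside 35.7% of all 10503 measured genes called in either direction, 18.4% called higher and 17.3% called lower. As the members were picked with this contrast in view, nothing is read from that count. The groups did not overlap for 5 member genes, the same 5, beside 51.4% of all genes. Counted by probe, 6 of the 8 measured member probes were called, beside 33.9% of all measured probes, and 6 of the 8 had groups that did not overlap, beside 48.8%.

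**Figure D1:**
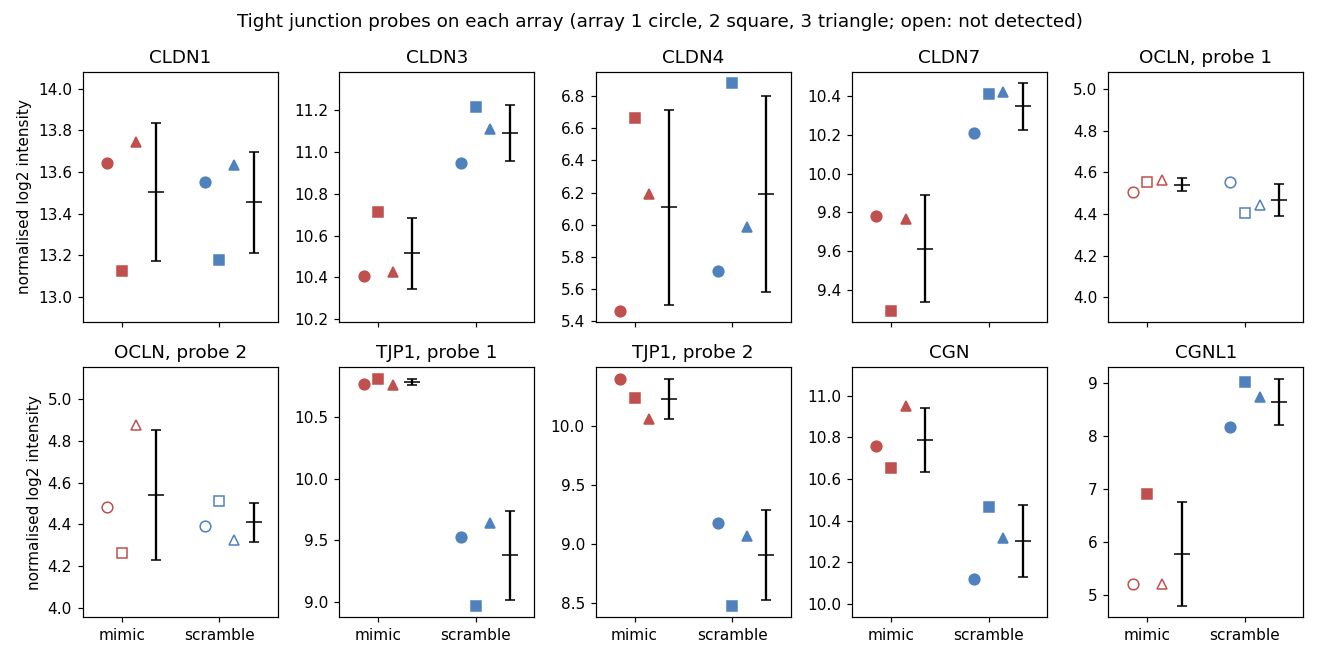
Normalised log2 intensity (y axis) of each of the 10 member probes on each array, mimic left of scramble, with the mean and SD (n = 3 each) to the right of the points. Both TJP1 probes and CGN lie higher, and CLDN3, CLDN7 and CGNL1 lower, on all mimic arrays than on all scramble arrays, and both OCLN probes have open symbols throughout.

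TJP1 encodes ZO-1, the scaffold that links claudins to actin. Its brighter probe, ILMN_1691499, had log2 intensities of 10.77, 10.81 and 10.76 on mimic arrays 1 to 3, against 9.53, 8.97 and 9.64 on scramble arrays 1 to 3. The mimic arrays lay close together, while scramble array 2 stood below the other two. The difference, mimic minus scramble, was 1.40 ± 0.18 on the log2 scale (SE from the fit, n = 3 per group). The other probe, ILMN_2403006, is annotated to another TJP1 transcript. It read 10.40, 10.24 and 10.06 on mimic arrays and 9.18, 8.48 and 9.07 on scramble arrays, a difference of 1.32 ± 0.20. Both probes thus separated the groups in full, with scramble array 2 the lowest of the 6 on each. Over the 6 arrays the 2 probes correlated at r = 0.99, and at r = 0.87 after each group's mean was taken off, as a description over arrays that share their RNA. Ranked by size of difference over all 10503 genes, TJP1 stood at place 421.

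CGNL1 encodes paracingulin, which is found at both tight and adherens junctions. Its 1 probe had log2 intensities of 5.19, 6.89 and 5.20 on mimic arrays, against 8.16, 9.02 and 8.74 on scramble arrays. All mimic arrays lay below all scramble arrays, and mimic array 2 stood well above the other two. The difference was -2.88 ± 0.45, place 18 of 10503 genes by size. CGNL1 was detected on all 3 scramble arrays but only on array 2 of the mimic, with detection p-values of 0.0182 and 0.0156 on mimic arrays 1 and 3, so the size of the difference rests partly on signal near background. Without mimic array 2 the difference was -3.44. It was smaller with an offset of 50 (-2.25), with no background correction (-1.65) and in the authors' processed values (-1.18).

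CGN encodes cingulin, which binds ZO-1 and holds the RhoA activator GEF-H1 at the junction in an inactive state. Its probe read 10.76, 10.65 and 10.95 on mimic arrays, against 10.12, 10.46 and 10.32 on scramble arrays. The groups did not overlap, but the lowest mimic array and the highest scramble array, both number 2, came close. The difference of 0.49 ± 0.15 was positive under every alternative run, from 0.40 without scramble array 1 to 0.64 without array 2 of both groups. The paralogs CGN and CGNL1 therefore lay on opposite sides, CGN higher and CGNL1 lower with the mimic.

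CLDN7 encodes a claudin of epithelial tight junctions and lateral membranes. It read 9.78, 9.30 and 9.76 on mimic arrays, against 10.21, 10.41 and 10.42 on scramble arrays. Mimic array 2 was the lowest of the 6, and no mimic array reached a scramble array. The difference was -0.73 ± 0.17, and -0.54 without array 2 of both groups. CLDN3, a barrier-forming claudin, read 10.41, 10.71 and 10.43 on mimic arrays, against 10.95, 11.22 and 11.11 on scramble arrays. Here array 2 was the highest of its group in both groups, and the groups again did not overlap. The difference was -0.58 ± 0.14.

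CLDN4, like CLDN3, is one of the receptors of Clostridium perfringens enterotoxin, and in the RefSeq gene table the 2 genes are direct neighbours with 0 genes between them. CLDN4 was detected on all 6 arrays, on mimic array 1 with a detection p of only 0.00909. It read 5.47, 6.67 and 6.19 on mimic arrays, against 5.71, 6.88 and 5.98 on scramble arrays. The groups overlapped throughout, and array 2 was the highest in each group. The difference was -0.08 ± 0.37, which leaves room for a change of either sign, and it ran from -0.36 to 0.26 when 1 array was left out. CLDN1, the claudin that the skin barrier needs, read 13.64, 13.13 and 13.74 on mimic arrays, against 13.55, 13.18 and 13.63 on scramble arrays. Array 2 was the lowest in each group. The difference was 0.05 ± 0.20, with values from -0.09 to 0.24 when 1 array was left out. These values do not show that CLDN1 and CLDN4 were equal in the groups.

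OCLN encodes occludin, a strand protein with a MARVEL domain. Its probe ILMN_2255088 read 4.50 to 4.56 on mimic arrays and 4.40 to 4.55 on scramble arrays, with detection p-values from 0.327 to 0.721. The other probe, ILMN_1724149, read 4.26 to 4.88 on mimic arrays and 4.33 to 4.51 on scramble arrays. Neither entered the fit, and no fold is given since both groups lie below the detection limit. These probes therefore give no information on whether OCLN differed between the groups.

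**Figure D2:**
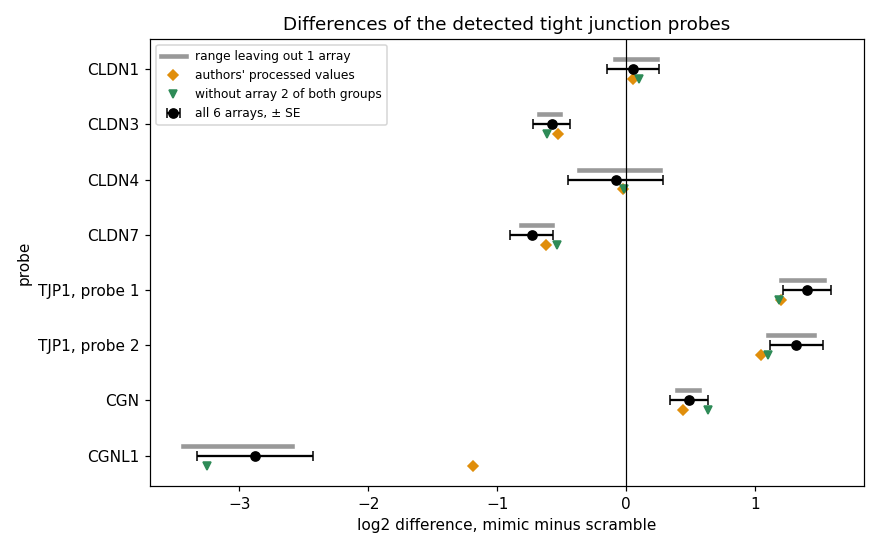
Log2 difference (x axis, mimic minus scramble) of the 8 member probes that entered the fit (y axis), with the SE, the range when 1 array is left out, the value without array 2 of both groups and the value in the authors' processed table. The authors' value for CGNL1 (-1.18) lies furthest from its value over all 6 arrays (-2.88).

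The spread within groups differed between members and followed array number in some of them. The within-group SD was 0.76 for CGNL1 and 0.61 for CLDN4, at the 99.4 and 98.5 percentiles of all measured probes, and both genes were near the detection limit on some arrays. It was 0.15 for CLDN3 and 0.16 for CGN, below the median of 0.20 over all measured probes. Array 2 was the highest of its group in both groups for CLDN3, CLDN4 and CGNL1, and the lowest in both groups for CLDN1. For CLDN7 and CGN array 2 was lowest among the mimic arrays and not lowest among the scramble arrays. Array 2 correlated with arrays 1 and 3 at r = 0.982 within the mimic group, against 0.993 between arrays 1 and 3. In the scramble group it correlated with array 1 at 0.982 and with array 3 at 0.989, and arrays 1 and 3 at 0.986, so array 2 did not stand apart there. Leaving out both number 2 arrays, a setting added once the data had been seen, the differences were 1.18 for TJP1, 0.64 for CGN, -3.25 for CGNL1, -0.54 for CLDN7 and -0.61 for CLDN3.

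**Figure D3:**
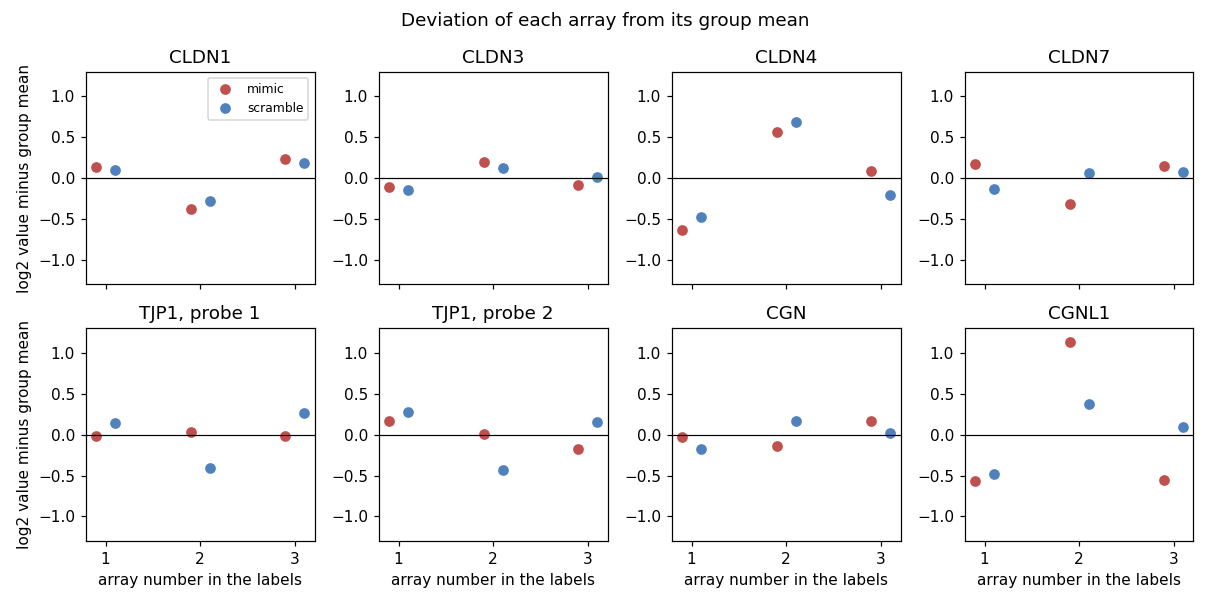
Log2 value minus the mean of its group (y axis) for each array number (x axis) and each of the 8 member probes in the fit, mimic left of scramble. CLDN1 dips and CLDN4 peaks at array 2 in both groups, and mimic array 2 of CGNL1 stands highest.

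Promoter windows are shown for the pair of claudins that were lower and for the pair of cingulin paralogs that lay on opposite sides. Each window runs from 250 bases before to 50 bases after a RefSeq start site in build GRCh38.p14, read 5′ to 3′ on the gene's strand. For CLDN7 and CGN the start site shown lies inside the RefSeq span of the gene and not at its first base. Capitals mark 3 motifs searched on both strands: CAGGTG, the E-box bound by SNAI and ZEB repressors, GGGCGG, the GC box of SP factors, and ACCGGT, the core of the site of GRHL factors. Neighbouring matches can overlap or share bases.
CLDN7, chr17:7262429-7262728, minus strand: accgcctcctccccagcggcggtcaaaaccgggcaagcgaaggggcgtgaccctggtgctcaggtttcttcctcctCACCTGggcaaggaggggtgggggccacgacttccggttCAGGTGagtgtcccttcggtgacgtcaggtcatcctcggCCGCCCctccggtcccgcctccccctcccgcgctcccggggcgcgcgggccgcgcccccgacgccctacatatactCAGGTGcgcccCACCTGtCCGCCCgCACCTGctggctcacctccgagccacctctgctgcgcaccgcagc
CLDN3, chr7:73770221-73770520, minus strand: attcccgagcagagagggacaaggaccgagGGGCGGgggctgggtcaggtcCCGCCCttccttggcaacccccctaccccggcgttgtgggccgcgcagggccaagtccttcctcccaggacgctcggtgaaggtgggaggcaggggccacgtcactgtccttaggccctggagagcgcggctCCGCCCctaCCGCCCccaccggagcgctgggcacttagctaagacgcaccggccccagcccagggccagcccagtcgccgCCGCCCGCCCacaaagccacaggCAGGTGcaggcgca
CGN, chr1:151511137-151511436, plus strand: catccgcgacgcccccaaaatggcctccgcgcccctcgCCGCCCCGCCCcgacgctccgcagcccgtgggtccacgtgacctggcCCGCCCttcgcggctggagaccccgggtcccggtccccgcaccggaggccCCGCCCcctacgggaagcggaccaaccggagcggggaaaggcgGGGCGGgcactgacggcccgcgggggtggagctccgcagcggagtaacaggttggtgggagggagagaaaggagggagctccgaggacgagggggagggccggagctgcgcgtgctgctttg
CGNL1, chr15:57376255-57376554, plus strand: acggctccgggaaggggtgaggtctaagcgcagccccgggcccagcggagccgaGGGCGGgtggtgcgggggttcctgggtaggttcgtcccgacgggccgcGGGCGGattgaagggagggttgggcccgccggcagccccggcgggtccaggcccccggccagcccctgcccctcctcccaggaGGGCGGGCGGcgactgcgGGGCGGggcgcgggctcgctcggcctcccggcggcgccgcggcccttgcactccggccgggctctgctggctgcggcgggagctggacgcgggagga

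The CLDN7 window held 5 E-boxes and 2 GC boxes, the CLDN3 window 1 E-box and 6 GC boxes, and the CGN and CGNL1 windows 5 GC boxes each and 0 E-boxes. Of all 35116 promoter windows in the table, 20.6% held at least 1 E-box, 45.0% a GC box and 1.83% the GRHL core, which was in none of the member windows. The E-boxes of CLDN7 started 174, 135, 20 and 9 bases before the start site and at base 6 of the transcript. CLDN7 has another window at a start further upstream that held none of the motifs. Of the 4 TJP1 windows, 1 held an E-box and 3 held GC boxes, and the CLDN1 and CLDN4 windows held 0 E-boxes. The OCLN windows held 1 and 2 E-boxes, and the TJP3 windows 0 and 1. The share of G and C in the members' windows ran from 59.0% in CLDN4 to 80.0% in CGNL1, apart from 1 TJP1 window at 35.7%. The median over all windows was 58.7%, so CLDN4 and the upstream CLDN7 window (60%) lay close to it. These are matches of letters in a fixed window and show no binding.

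Outside the 9 members, 115 other genes of the tight junction and its surroundings were listed by name and role. Measured values were had for 76 of these, with 20 that rose, 8 that fell and 48 without a call, and a median log2 difference of 0.09. The share called, 36.8%, is close to the 35.7% over all genes, whose median was 0.03. Rises outnumbered falls in the list, against 1933 rises and 1819 falls over all genes, which is a description and no test. With no background correction there were 21 rises and 12 falls, and in the authors' values 18 and 12. The counts were 13 rises without mimic array 3 and 4 falls without mimic array 1, and 15 and 6 without array 2 of both groups. Genes below are named by the size rule in the processing section unless said otherwise, and p-values are limma's, adjusted over all measured probes.

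**Figure D4:**
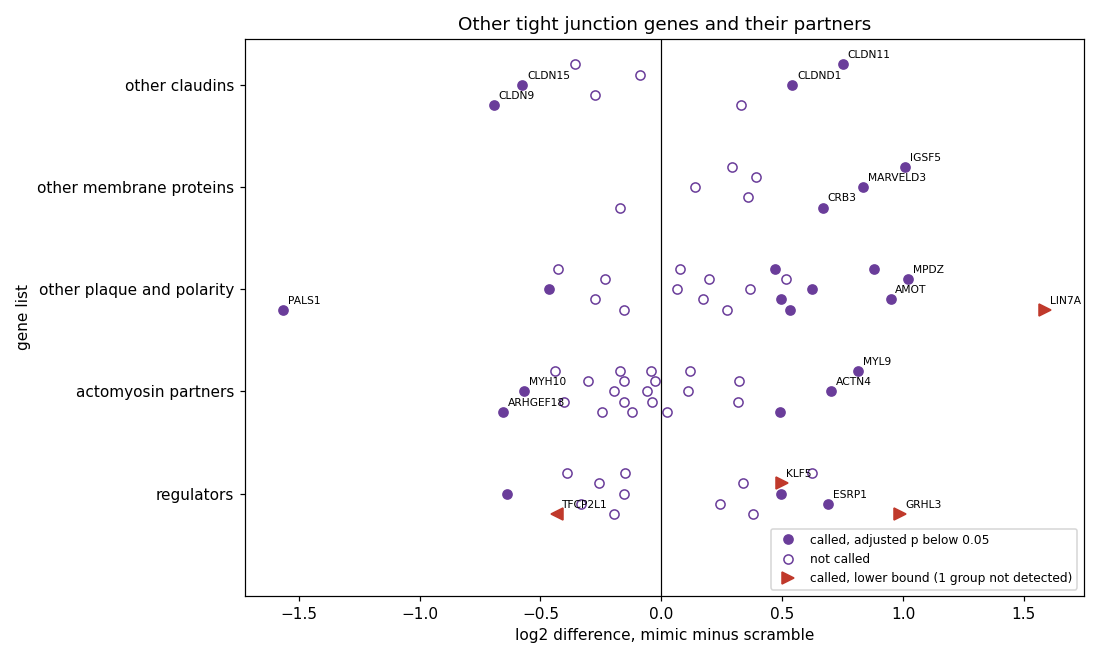
Log2 difference (x axis, mimic minus scramble) of the 76 measured genes of 5 lists (y axis), each a point, filled where called; triangles stand at the lower bound of 4 genes that were not detected on any array of 1 group. PALS1 lies furthest left at -1.56 and the bound of LIN7A, 3.01-fold, furthest right.

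Only some of the other claudin genes were measured in these cells, 8 of 20 listed, with 2 that rose, 2 that fell and 4 without a call. The share called was 50%, beside 35.7% over all genes. CLDN8, named after its values were seen, counts as not called on its brighter probe (-0.36, adjusted p = 0.12). Its other probe was called lower, at -0.64 with no overlap of the groups (adjusted p = 0.00842). CLDN15, a claudin that forms cation pores, averaged 7.79 ± 0.25 on mimic arrays and 8.37 ± 0.11 on scramble arrays (log2, SD, n = 3 each), a difference of -0.58 ± 0.16 (adjusted p = 0.0251, lower in all 3 mimic arrays). CLDND1, a claudin-domain gene, changed by 0.54 ± 0.16 (adjusted p = 0.0322), and its second probe by 0.47. CLDN11, a claudin of myelin and the testis barrier, changed by 0.75 ± 0.15 (adjusted p = 0.00765) with detection on 1 of 3 scramble arrays. CLDN9 changed by -0.69 ± 0.21 (adjusted p = 0.0357) with detection on 1 of 3 mimic arrays. The last 2 were not called in the authors' values, with differences of 0.14 for CLDN11 and -0.12 for CLDN9, or with no background correction (0.24, adjusted p = 0.0501, and -0.22, adjusted p = 0.101). CLDN9 was also lost with an offset of 50, with no filter on dim probes and with a trended robust variance (adjusted p = 0.0503, 0.0846 and 0.0510). CLDND1 was not called without mimic array 2 or 3 or scramble array 1 or 2 (adjusted p from 0.0575 to 0.0786), and CLDN15 and CLDN9 were lost without mimic array 1 or 3 or scramble array 3, CLDN9 also without scramble array 2.

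Among 8 measured genes of other junction membrane proteins, 3 rose, 0 fell (by limma, also 0 in each other setting run and 0 at an unadjusted p below 0.05) and 5 had no call. With 37.5% called, the list lay near the 35.7% over all genes, of which 17.3% were called lower. Nothing is read from the 0 falls among so few genes. IGSF5, an immunoglobulin-type junction protein, averaged 8.76 ± 0.07 on mimic arrays and 7.75 ± 0.22 on scramble arrays, a rise of 1.01 ± 0.15 (adjusted p = 0.00192). CRB3, the small transmembrane protein that anchors the Crumbs polarity complex, changed by 0.67 ± 0.13 (adjusted p = 0.00547), and its other 2 measured probes rose as well, one by 0.59 and the other, detected on 0 of 3 scramble arrays, at least 1.58-fold. That bound does not hold in the authors' values, where the log2 difference of the probe was 0.24. MARVELD3, a relative of occludin, changed by 0.84 ± 0.13 on its brightest probe (adjusted p = 0.00258), while its other 2 measured probes were not called, with differences of 0.06 and 0.33. LSR, named after its values were seen, was not called on its brightest probe (0.39, adjusted p = 0.105). Another LSR probe was called higher (0.53, adjusted p = 0.0128).

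Among 21 measured plaque and polarity genes, calls were made for 8 that rose and 2 that fell, a share of 47.6% beside 35.7% over all genes. PALS1, the adaptor that joins CRB3 to PATJ, had log2 intensities of 7.92, 8.19 and 8.01 on mimic arrays, against 9.59, 9.60 and 9.62 on scramble arrays. The scramble arrays were nearly equal and every mimic array lay more than 1 log2 unit below them, a difference of -1.56 ± 0.13 (adjusted p = 0.000233). LIN7A, a small PDZ adaptor that binds PALS1, was detected on all 3 mimic arrays and on 0 of 3 scramble arrays, and rose at least 3.01-fold (adjusted p = 0.000111). The bound depends on the background correction: the log2 difference was below it with an offset of 50 (1.37), with no background correction (0.84) and in the authors' values (0.51). MPDZ, a scaffold with many PDZ domains that binds claudins, rose by 1.02 ± 0.14 (adjusted p = 0.00160) and AMOT, angiomotin, which binds PATJ, MPDZ and YAP, by 0.95 ± 0.18 (adjusted p = 0.00625, detected on 1 of 3 scramble arrays). In the authors' table AMOT missed the threshold (0.18, adjusted p = 0.0506), and with no background correction AMOT was at 0.31 and MPDZ at 0.49. Chosen after their values were seen, PATJ, the PDZ scaffold of the Crumbs complex, changed by 0.53 ± 0.13 on its brighter probe (adjusted p = 0.0146), while its other probe lay the opposite way at -0.42 ± 0.15 with no overlap of the groups and no call (adjusted p = 0.0692), so the direction of PATJ is unsettled. PRKCZ, an atypical protein kinase C of the PAR complex and chosen in the same way, changed by -0.46 ± 0.15 on its brighter probe (adjusted p = 0.0462), and its other probe was not called (-0.32, adjusted p = 0.157).

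Actomyosin genes and regulators that bind the plaque gave 3 calls higher and 2 lower among 23 measured, a share of 21.7% beside 35.7% over all genes. The calls numbered 3 higher and 4 lower with no background correction, and 2 higher and 5 lower in the authors' values. MYL9, a myosin regulatory light chain, rose by 0.81 ± 0.17 (adjusted p = 0.00935), and its other probe by 1.17. ACTN4, an actin crosslinker, rose by 0.70 ± 0.12 (adjusted p = 0.00332). ARHGEF18, a RhoA activator at the apical junction, fell with a difference of -0.65 ± 0.12 (adjusted p = 0.00457), and MYH10, a non-muscle myosin heavy chain, with -0.57 ± 0.12 (adjusted p = 0.00956). RHOA itself, named after its value was seen, missed the threshold at -0.40 ± 0.14 (adjusted p = 0.0645). RAC1 and CTTN, chosen in the same way, were not called on their brightest probes (-0.31 and -0.24, adjusted p = 0.0859 and 0.167). Another RAC1 probe was called lower (-0.84, adjusted p = 0.011), and another CTTN probe was called higher (0.51, adjusted p = 0.0238).

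Among transcription factors and other regulators of epithelial junctions, calls were made for 4 that rose and 2 that fell of 16 measured. That is 37.5% called, beside 35.7% over all genes. GRHL3 and KLF5, epithelial transcription factors, were detected on all 3 mimic arrays and on 0 of 3 scramble arrays, and rose at least 1.98-fold (adjusted p = 0.00118) and at least 1.41-fold (adjusted p = 0.00191). A second GRHL3 probe was not called (0.41). The GRHL factors did not all go up. GRHL2, outside the size rule and added with its result known, was detected on all 3 arrays of each group. It averaged 8.78 ± 0.23 on mimic arrays and 9.42 ± 0.22 on scramble arrays (log2, SD, n = 3 each). Its difference of -0.64 ± 0.17 was a fall (adjusted p = 0.0232, no overlap of the groups). GRHL1 was not called (0.38, adjusted p = 0.102). TFCP2L1, a relative of the GRHL factors, was detected on no mimic array and fell at least 1.35-fold (adjusted p = 0.0115), with no call in the authors' values (adjusted p = 0.0689). ESRP1, an epithelial splicing regulator, rose by 0.69 ± 0.16 (adjusted p = 0.0125), a call lost without mimic array 3 (0.0512). The claudin repressors SNAI1, ZEB1 and ZEB2, named after their values were seen, were detected on no array, ZEB2 as judged by its brighter probe. None of the 3 entered the fit, so no difference in them was measured. SNAI2, of the same list, was detected on 1 mimic and 1 scramble array with its brighter probe and did not enter the fit. TWIST1, also listed, was detected on all 3 arrays of each group. Its difference was 0.62 ± 0.27, with no overlap of the groups and no call (adjusted p = 0.116). The 3 bounds of this list also depend on the background correction. With none, the log2 differences were 0.44 for GRHL3, 0.40 for KLF5 and -0.36 for TFCP2L1, all smaller than the bounds, and GRHL3 was also below its bound with an offset of 50 (0.75). ESRP1 was at 0.39 with no background correction. In the authors' more compressed values the log2 differences of several named genes were over 1.5 times smaller, with CLDN15 at -0.32, IGSF5 at 0.60, MARVELD3 at 0.54, MPDZ at 0.31, ESRP1 at 0.27, GRHL3 at 0.26, KLF5 at 0.22 and TFCP2L1 at -0.20, so the bounds do not hold there either.

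Genes with array patterns most like TJP1 and CGNL1 were sought among 1097 genes with a difference of at least 1 log2 unit. Closest to TJP1 over the 6 arrays were TMEM131L (r = 0.996, difference 1.69), CRY1 (0.995, 1.14) and the desmosomal plaque gene PKP2 (0.994, 1.24). Closest to CGNL1 were KHNYN (0.999, -1.05), RPS6KA5 (0.999, -1.08) and IRF2BP2 (0.996, -1.93). With 6 arrays in 2 groups these values mostly carry the group difference, and they are given as a description.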

How the data were processed

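The authors deposited a non-normalized table with a linear intensity and a detection p-value for each probe and array, per the file headers, and a second table of processed intensity values, for which the submitters' processing notes name lumi 3.2.2. Which software made the first table is not given in the sources used. All 6 processed columns share a median of 200.783, a lowest value of 170.293 and a mean of 602; the scale is linear, the transform and any centring stay unknown, and each column correlated with the log2 intensities of its own array at r = 0.978 to 0.988 after probe means were removed, against at most 0.799 for other arrays. Detection p-value columns carry no sample name, and each fell with the intensity column before it (Spearman -0.983 or below) more than with any other.

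Intensities were background-corrected by normexp from the detection p-values (nec, offset 16), quantile-normalized and put on the log2 scale, then tested with lmFit and eBayes in limma 3.58.1 (R 4.3.3, two-sided, Benjamini-Hochberg over 17104 probes; called at adjusted p below 0.05). Rose, fell and changed are used of calls. Arrays carry no counts, so their number limits the precision. The brightest measured probe stands for a gene, and member genes are shown by all probes. Probe names come from the platform annotation (30113 probes with 1 symbol, 8 with several, 17201 not listed), updated by Entrez identifier for 30074 probes through RefSeq GRCh38.p14, which also gave the miRNA and promoter sequences. A probe undetected on a whole group has only a bound: the bright group's mean over, per array, the probe's value or, where larger, the dimmest detected signal.

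Members, lists and rules were chosen with earlier results of these data known. Of each of 5 lists the 4 called genes with the largest difference and no overlap are named. The fit was tested on simulated data. Alternatives changed the background correction, scaling, filter, variance model, replicate block, probe rule and arrays used.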

Additional observations from a re-analysis of the deposited data

How the results depend on the processing

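No called result changed direction under the alternatives run; the signs of CLDN1 and CLDN4, not called, did. The count of member genes called higher was 1 with no filter on dim probes, and ranged from 1 to 2 when 1 array was left out, since CGN was lost without mimic array 1 or 3 or scramble array 1 or 3; the count called lower ranged from 2 to 3, since CLDN3 was lost without mimic array 1 or 3 or scramble array 2 or 3. In the list of other tight junction genes, falls numbered 5 with no filter on dim probes, 4 to 10 when 1 array was left out, and 12 both with uncorrected background and in the authors' values, against 8; rises numbered 13 to 18 when 1 array was left out, against 20. Over all genes, leaving out 1 array lowered the 3752 calls to between 2533 and 3592, so a lower count in a list can follow from fewer calls everywhere. Per list, no claudin fell with no filter or without mimic array 1 or 3 or scramble array 3 (each 0, against 2), no claudin rose without array 2 of both groups (0, against 2), plaque and polarity rises were 4 without mimic array 3 (against 8), regulator falls were 5 with uncorrected background and 4 in the authors' table (against 2), and actomyosin falls were 5 in the authors' values (against 2).

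Same-numbered arrays did not deviate together in every pair (r = 0.36, 0.45 and -0.11 for arrays 1, 2 and 3), so the shared number is not taken as a pairing. With the replicate block 6680 probes and 4260 genes were called, against 5798 and 3752, with member counts still 2 higher and 3 lower and the list of other genes at 21 higher and 9 lower. Median scaling moved the median difference of all probes to 0.10 and split the probe calls into 3676 higher and 2210 lower, against 3002 and 2796; the 5 called members kept their sides. Signal over background limits CGNL1, CLDN4 and OCLN most among the members. Outside the members it also limits CLDN9, CLDN11, AMOT, LIN7A, GRHL3, KLF5 and TFCP2L1. The cause of the smaller CGNL1 difference in the authors' values (-1.18) and with uncorrected background (-1.65) was not tested.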
